A study of Xiphophorus maculatus with 65 samples.

Results

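Genes of scale and bone cells were followed through the skin and liver transcriptomes of 2 inbred strains of *Xiphophorus maculatus*, Jp163 A (JpA) and Jp163 B (JpB). The 8 genes, *sp7*, *dlx5*, *sparc*, *postn*, *bglap*, *phospho1*, *alpl* and *entpd5*, were taken by their NCBI symbol from 27242 gene models. The rule itself reads no measured value, but the list was drawn up with earlier results of these data known. All fish were males, and per the labels none was treated. JpA skin came from fish of 13 months (4 samples), 20 months (5) and 24 months (16, with 2 at each of 8 hours of the day). JpB skin came from fish of 9 to 12 months in 26 samples, whose fish labels begin with XMB_101 (1), XMB_104 (11), XMB_105 (6), XMB_106 (4) or XMB_109 (4), each number standing for 1 label year. The 25 JpA samples carry 23 fish labels, with 3 labels for the 5 samples of 20 months, and the 26 JpB samples also carry 23, so that some samples may share a fish. The JpA fish of 20 and 24 months and the XMB_106 fish carry dates of 1 year, called the early year here, and the JpA fish of 13 months and the XMB_109 fish carry dates of a later year, called the late year. JpA liver came from 4 samples of 20 months, with fish labels n, x, z and z-r, and 2 of 13 months. The labels do not say whether z and z-r are 1 fish. JpB liver came from 4 XMB_109 fish of 9 months. Sample names hold the control words 0 min, 0pt or sham in both strains, an hour in JpA, and a UV dose of 0 kJ or the word CO-0min in JpB. Library names also hold a letter code of unstated meaning. It is GW in all JpA, XMB_106 and XMB_109 libraries, EA in XMB_101, SP in XMB_104 and BC in XMB_105. As the strains share no label date and no age, strain cannot be told apart from age or date. The code goes in part with strain and with the number of the JpB fish label.

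The scales of bony fishes are thin plates of mineralized collagen in the dermis. Osteoblasts of the scale lay down the collagen and load it with calcium phosphate, and osteoclasts resorb it. Sp7, also called osterix, and Dlx5 are transcription factors of osteoblast differentiation, Sparc, periostin (Postn) and osteocalcin (Bglap) are proteins of the matrix, and Phospho1, tissue-nonspecific alkaline phosphatase (Alpl) and Entpd5 release or supply phosphate for mineral. Sparc, periostin and alkaline phosphatase are also made by other cells, such as fibroblasts. In bulk tissue, fewer scale cells and less RNA per scale cell cannot be told apart.

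Total counts per library ranged from 26843901 to 98104664 over the 65 libraries. Each of 4 pairs of JpB skin libraries from 1 fish label was counted as 1 sample, since its chi-square per degree of freedom was 2.01 to 2.78, near sampling noise, while the remaining same-label pairs reached at least 9.30. JpB skin libraries of different fish labels had 30.8 or more. JpB samples 15 and 16 (9.30), and sample 4 with the libraries of sample 5 (13.8 and 13.6), lay below that. They were kept as separate samples, so p-values that include JpB skin may be too small. The tissue labels held. The summed level of 9 keratinocyte markers was 2565 to 10929 CPM in skin and 695 to 1091 CPM in liver, and that of 6 hepatocyte markers was 13.0 to 83.5 CPM in skin and 48019 to 162053 CPM in liver. *cps1*, 1 of these 6, went the other way, with 0 counts in all livers and a mean of 1.78 CPM in skin. JpB skin samples 11 and 12, both of 10 months and of the XMB_104 fish, stood apart from the other skin samples. Their 5 skeletal muscle markers summed to 6435 and 5555 CPM, against 178 to 1916 CPM in the other JpB samples and 272 to 1865 CPM in JpA, and they held the lowest JpB levels of *sp7*, *sparc*, *phospho1*, *postn* and *entpd5*. Values without them are also given for the strain, label year and JpB age comparisons, the index and most correlations over all skin samples. Correlations within JpB include both and were not computed without them. The part of muscle in the levels of these samples was not tested. The titles of the 2 JpA livers of 13 months name JpB while the strain field names JpA. Values with and without these 2 livers are given where livers of the strains are compared.

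All 8 genes were detected in every skin sample. Levels are given as CPM, counts scaled to library size after TMM normalization over all samples, as the lowest, median and highest sample where a group holds more than 5. CPM is not divided by transcript length, so levels are compared between samples and not between genes. Overlap between groups was read for the 8 genes only, and the share of all genes without overlap was not counted. Fold changes are log2 values of JpB over JpA from edgeR's quasi-likelihood test, with Benjamini-Hochberg adjustment over all genes tested, and a gene is called at an adjusted p under 0.05.

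**Figure D1:**
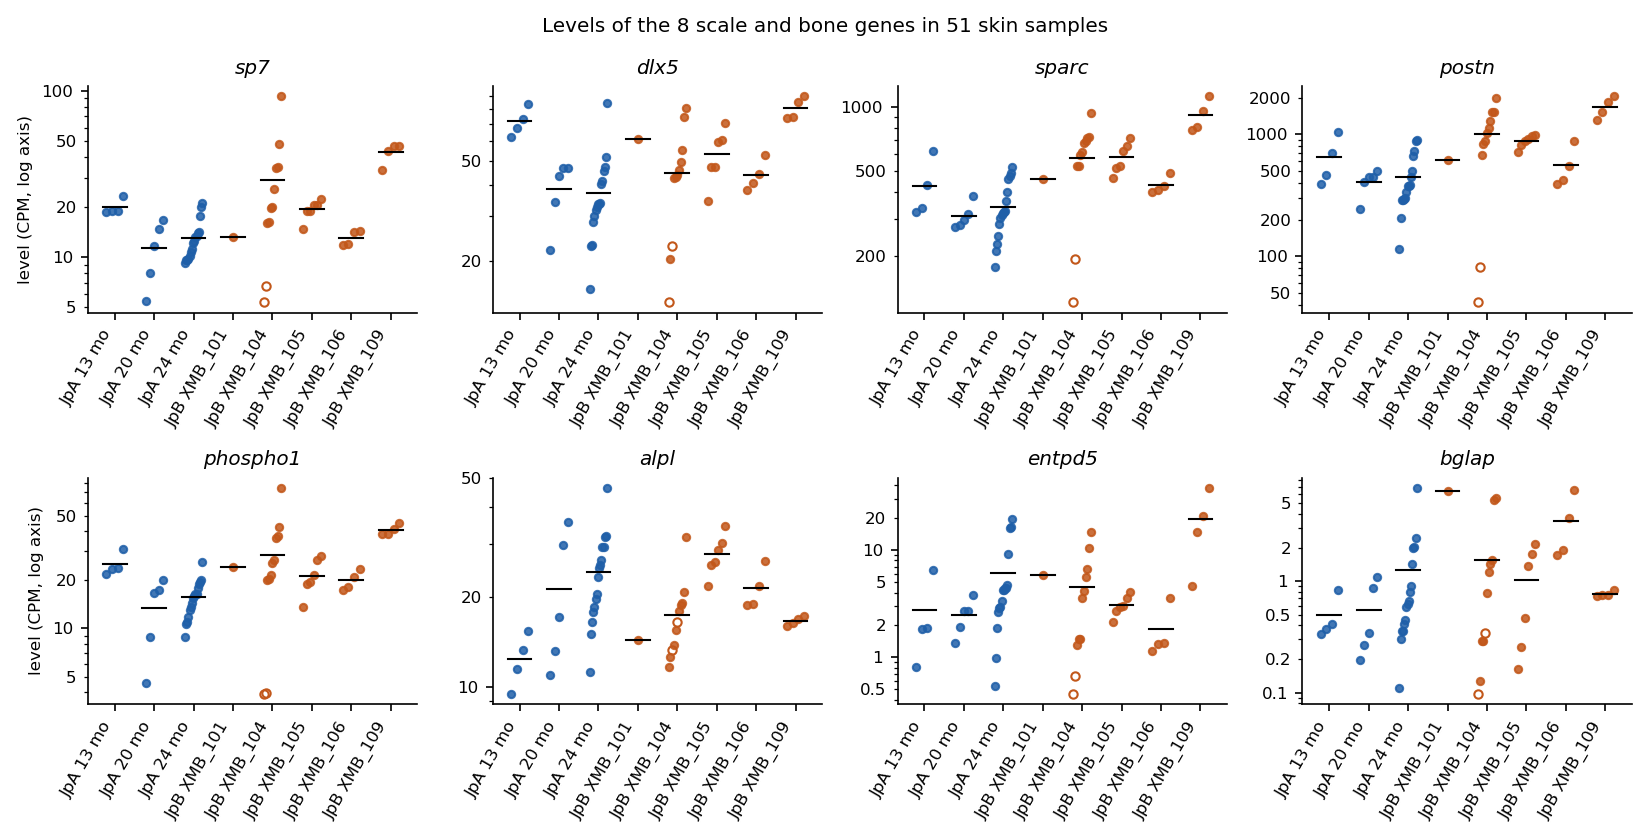
Level of each gene (CPM, log axis) in the 51 skin samples, with JpA (blue) split by age in months and JpB (orange) by fish label. Points are samples, lines are group means, and open circles are JpB samples 11 and 12. For *sp7* the 4 XMB_109 samples lay at 33.2 to 46.8 CPM and the 4 XMB_106 samples at 11.8 to 14.4 CPM.

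Of the transcription factors, *sp7* was higher in JpB skin and *dlx5* did not pass the test. *sp7* lies on chromosome 20 from 13076997 to 13081259. Levels were 5.44, 13.2 and 23.2 CPM in JpA (n = 25) and 5.32, 19.9 and 92.6 CPM in JpB (n = 26). The ranges overlapped, and 21 of 26 JpB samples lay above the JpA median and 9 above the highest JpA sample. The fold change, in log2, came to 0.91 (standard error 0.20, adjusted p = 0.000797). *dlx5*, on chromosome 13 from 21286599 to 21288569, was at 15.5, 40.4 and 84.8 CPM in JpA and 13.7, 48.1 and 90.0 CPM in JpB, and its fold change of 0.30 (standard error 0.16) had an adjusted p of 0.173. The JpB samples covered the whole JpA range for this gene.

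Of the matrix genes, *sparc* and *postn* were higher in JpB and *bglap* was low and variable in both strains. *sparc*, whose product binds collagen and calcium, lies on chromosome 23 from 6114765 to 6133233. It was at 178, 321 and 625 CPM in JpA and 121, 607 and 1124 CPM in JpB, and its fold change was 0.80 (standard error 0.14, adjusted p = 5.95e-05). In 24 of 26 JpB samples it was above the JpA median, the exceptions being samples 11 and 12. *postn*, on chromosome 11 from 29702908 to 29724886, was at 115, 407 and 1041 CPM in JpA and 41.8, 903 and 2056 CPM in JpB. Its log2 fold change was 1.09 (standard error 0.24, adjusted p = 0.0007), and 23 of 26 JpB samples were above the JpA median. *bglap*, on chromosome 16 from 20261189 to 20263794, was at 0.111, 0.591 and 6.87 CPM in JpA and 0.0972, 1.02 and 6.56 CPM in JpB, and its fold change of 0.86 (standard error 0.41) had an adjusted p of 0.113. The standard deviation of *bglap* was 136% of the mean in JpA and 112% in JpB, the widest relative spread of the 8 genes in JpA.

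Of the genes of phosphate supply, *phospho1* alone was higher in JpB. *phospho1*, a phosphatase that frees phosphate inside matrix vesicles, lies on chromosome 16 from 6275119 to 6277475. It was at 4.58, 16.4 and 31.0 CPM in JpA and 3.91, 23.7 and 74.3 CPM in JpB (log2 fold change 0.71, standard error 0.19, adjusted p = 0.00485). All but 3 of 26 JpB samples were above the JpA median. *alpl*, on chromosome 20 from 9292221 to 9311356, was at 9.51, 19.6 and 46.3 CPM in JpA and 11.7, 18.8 and 34.6 CPM in JpB. Its fold change was -0.10 (standard error 0.14, adjusted p = 0.628), and the JpB samples lay inside the JpA range. *entpd5*, on chromosome 19 from 8660186 to 8668083 and required for skeletal mineralization in zebrafish, was at 0.537, 2.96 and 19.6 CPM in JpA and 0.454, 3.54 and 38.0 CPM in JpB (0.33, standard error 0.39, adjusted p = 0.559).

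In all, 4 of 8 genes were called higher in JpB, beside 13.2% of the 20028 genes tested, and 0 were called lower, beside 12.3% (5 of 8 had an unadjusted p under 0.05). The median fold change of the 8 genes was 0.75, beside 0.02 over all genes tested. At the 3 limits of the methods, a log2 fold change of at least 1, an adjusted p under 0.05 and an ROC area of at least 0.8, only *postn* passed (ROC area 0.823), beside 0.729% of all genes on the JpB side. *sparc* had the larger ROC area, 0.872. The 4 calls held without JpB samples 11 and 12, with fold changes of 0.81 (*phospho1*) to 1.20 (*postn*), and with all libraries of a fish label summed, at 0.71 (*phospho1*) to 0.99 (*postn*). Over all genes these 2 fits called 6288 and 4778 genes, against 5093 in the main fit. The count also stayed at 4 when the JpB fish of any 1 label year or the JpA fish of 20 months were left out. Those fits called 3977 to 5216 genes in all. Without the JpA fish of 13 months the count was 5, beside 5649 genes in all, with *dlx5* added (0.49, adjusted p = 0.0196). Other choices of years and ages lowered it. With label year as a covariate in the samples of the early and late years, 2 genes were called, *sparc* (0.66, adjusted p = 0.0138) and *bglap* (1.33, adjusted p = 0.0463), and without the JpA fish of 24 months only *sparc* was (0.74, adjusted p = 0.0275). That last fit leaves out 16 of 25 JpA samples. In it *sp7* (0.78, standard error 0.33), *phospho1* (0.56, standard error 0.31) and *postn* (0.95, standard error 0.36) kept their direction. The part of sample number in the lost calls was not tested.

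**Figure D2:**
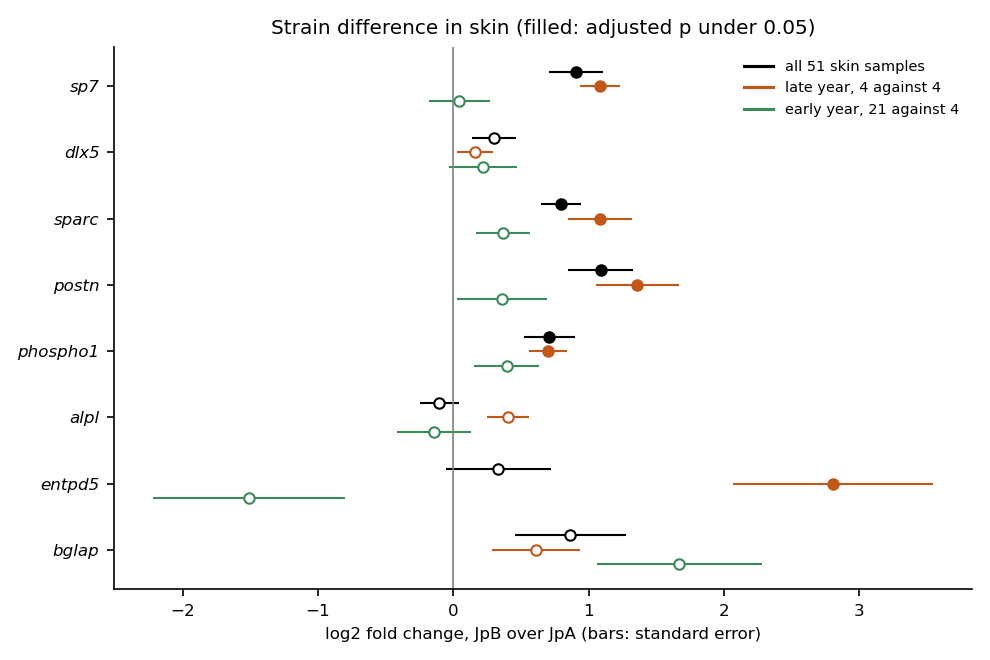
Log2 fold change of JpB over JpA in skin with its standard error, over all 51 samples (black), in the late year (orange, 4 against 4) and in the early year (green, 21 JpA against 4 JpB). Filled points have an adjusted p under 0.05: 4 genes over all samples, 5 in the late year and 0 in the early year.

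Within the late year, 4 JpA fish of 13 months stood against 4 JpB fish of 9 months, each strain with 2 samples named 0 min and 2 named sham. Here *sp7* was at 18.8, 18.8, 18.6 and 23.2 CPM in JpA and 33.2, 43.6, 46.7 and 46.8 CPM in JpB. No JpB sample overlapped the JpA samples, and the log2 fold change was 1.08 (standard error 0.15, adjusted p = 0.00437). *sparc* was at 429, 336, 322 and 625 CPM in JpA and 784, 964, 1124 and 806 CPM in JpB (1.09, standard error 0.24, adjusted p = 0.0208). *postn* was at 702, 390, 467 and 1041 CPM in JpA and 1313, 1533, 2056 and 1854 CPM in JpB (1.36, standard error 0.31, adjusted p = 0.024). Both matrix genes were higher in each JpB sample than in any JpA sample, and in JpA both were highest in sample 4.

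The phosphate genes of the late year were less uniform. *phospho1* was at 23.6, 21.7, 23.2 and 31.0 CPM in JpA and 38.6, 41.0, 45.1 and 38.5 CPM in JpB (0.70, standard error 0.14, adjusted p = 0.0161). *entpd5* was at 1.85, 0.817, 1.83 and 6.46 CPM in JpA and 4.63, 38.0, 20.9 and 14.8 CPM in JpB (2.81, standard error 0.74, adjusted p = 0.0388). JpB sample 30, the lowest of its group for *entpd5*, fell below JpA sample 4. *alpl* was at 11.5, 9.51, 15.4 and 13.4 CPM in JpA and 17.3, 16.0, 16.9 and 16.3 CPM in JpB, with no overlap, a fold change of 0.41 (standard error 0.16) and an adjusted p of 0.112. The fold changes of *bglap* (0.61) and *dlx5* (0.16) did not pass the test, and their groups overlapped.

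That makes 5 of 8 genes called higher in the late year, beside 6.31% of 20861 genes tested, and 0 called lower, beside 6.47%. Leaving out 1 of the 8 samples changed the count to between 1 and 6. It was 1 (*sp7*) without JpB sample 31 or without JpB sample 32, 3 without JpB sample 33 and 6 without JpA sample 4, while *sp7* kept an adjusted p of 0.00408 to 0.0212 in every one of these fits.

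Genes of other cell types moved in the same contrast. Of 9 keratinocyte genes, 4 were lower in JpB, *pkp3* (-1.65), *dsp* (-1.69), *ppl* (-1.63) and *grhl3* (-1.92), and the median of the list was -1.21. Of 6 hepatocyte genes, 4 were higher, *fgb* (5.76), *fgg* (5.53), *f2* (5.02) and *apob* (1.07). Of 7 fibroblast genes, 3 were higher, *col1a2* (2.39), *pdgfrb* (0.55) and *pdgfra* (0.49). Of 7 cartilage genes 1 was higher, of 9 melanophore genes 2 were, and none of 5 muscle genes was called by edgeR (adjusted p of 0.140 or more). These counts stand beside the same 6.31% and 6.47%, and the part of these cells in the differences of the 8 genes was not tested.

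Within the early year the same contrast called none of the 8 genes. It set 21 JpA samples of 20 and 24 months against 4 JpB samples of 11 months. All of these JpB samples were named 0pt, while the JpA samples were named by an hour, Sham or 0pt. *sp7* was at 5.44, 12.1 and 21.1 CPM in JpA and at 14.1, 14.4, 11.8 and 11.9 CPM in JpB, with a fold change of 0.05 (standard error 0.22, adjusted p = 0.926). The JpB samples lay in the middle of the JpA range. *sparc* was at 178, 317 and 526 CPM in JpA and 492, 406, 398 and 428 CPM in JpB (0.37, standard error 0.20, adjusted p = 0.268), and all 4 JpB samples were above the JpA median. The count was 0 of 8, by edgeR, beside 785 of 20445 genes (3.84%), and also by DESeq2, beside 9.85%, and 2 genes had an unadjusted p under 0.05. These were *bglap* (1.67, adjusted p = 0.104) and *entpd5* (-1.51, adjusted p = 0.197). In this contrast all 5 muscle markers had negative fold changes (median -1.04) and 2 were called, *neb* (-1.27, adjusted p = 0.0211) and *actn3* (-1.52, adjusted p = 0.0431). The cartilage genes *col9a3* (1.88) and *ucma* (-1.54) and the melanophore gene *tyr* (-1.18) were called as well.

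The strain effect of the late year was set against that of the early year in an interaction term added after both had been seen. *entpd5* was called, with a difference of 4.35 log2 units (standard error 1.13, adjusted p = 0.0466), since it was higher in JpB in the late year and its fold change was negative in the early year. For *sp7* the difference was 1.06 (standard error 0.34, adjusted p = 0.0933), for *sparc* 0.74 (adjusted p = 0.235) and for *postn* 1.02 (adjusted p = 0.332). The count was 1 of 8, beside 1.31% of 20762 genes.

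The JpB samples also differed between label years. The 4 samples of the late year were compared with the 4 of the early year in a test added after the values of both years had been seen. All 8 genes were called, beside 39.6% of 20716 genes tested. The transcription factors were higher in the late year, *sp7* by 1.70 log2 units (standard error 0.13, adjusted p = 4.06e-05) and *dlx5*, at 73.9 to 90.0 CPM against 38.1 to 52.6 CPM, by 0.88 (adjusted p = 0.000373). *sparc* (1.08), *postn* (1.58), *phospho1* (1.03) and *entpd5* (3.37) were higher as well. *bglap* was lower in the late year, at 0.737, 0.747, 0.836 and 0.747 CPM against 1.73, 1.91, 3.70 and 6.56 CPM (-2.18, standard error 0.39, adjusted p = 0.00183), and so was *alpl*, at 16.0 to 17.3 CPM against 18.8 to 26.4 CPM (-0.38, adjusted p = 0.025). The groups of *sp7*, *sparc*, *phospho1*, *entpd5*, *dlx5*, *bglap*, *alpl* and *postn* did not overlap between these years. With 39.6% of all genes called, how many other genes likewise did not overlap was not counted. The fish of the late year were 9 months old, with samples named 0 min or sham. Those of the early year were 11 months old, with samples named 0pt, so age, year and these words cannot be told apart here.

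Over the XMB_104, XMB_105, XMB_106 and XMB_109 fish together, an F test called *entpd5* (adjusted p = 0.00503) and *alpl* (adjusted p = 0.00908), 2 of 8 genes beside 28.6% of 21118. *alpl* had its highest mean in XMB_105 fish, with samples at 21.7, 27.4 and 34.6 CPM (n = 6), and its lowest mean in XMB_109 fish (16.6 CPM). DESeq2 called 3 genes, with *sp7* added (adjusted p = 0.0219), beside 37.9% of all genes. *entpd5* had a mean of 19.6 CPM in XMB_109, 4.56 CPM in XMB_104, 3.07 CPM in XMB_105 and 1.85 CPM in XMB_106. Without samples 11 and 12 the count was 7 of 8, all but *bglap* (adjusted p = 0.121), while the genes called over the whole table went from 6036 to 8759. *sparc* then had an adjusted p of 0.000526, *postn* of 0.00141 and *sp7* of 0.00381. The XMB_104 fish held the widest range, from 5.32 to 92.6 CPM of *sp7*, the top value in sample 13, a fish of 10 months.

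Age was compared within each strain and called none of the 8 genes. From 13 to 20 months in JpA, *dlx5* was at 73.4, 83.9, 62.1 and 67.3 CPM and then at 46.8, 43.6, 34.1, 46.8 and 22.0 CPM. The groups did not overlap, the log2 fold change was -0.88 (standard error 0.23) and the adjusted p was 0.144 from edgeR and 0.022 from DESeq2. *sp7* was at 18.6 to 23.2 CPM and then at 11.6, 16.7, 8.01, 14.8 and 5.44 CPM (-0.80, adjusted p = 0.236), and *phospho1* at 21.7 to 31.0 CPM and then at 4.58 to 19.9 CPM (-0.88, adjusted p = 0.27). Neither gene overlapped between these ages, and how many of all genes did not overlap was not counted. *alpl* had a positive value (0.80, adjusted p = 0.285). The count was 0 of 8 by edgeR and 1 by DESeq2, with 4 at an unadjusted p under 0.05, beside 58 of 19497 genes (0.297%) by edgeR and 4.34% by DESeq2. The fish of 13 months are of the late year and those of 20 months of the early year, so this comparison changes year as well. Sample names differ too, with 0 min or sham at 13 months and 0pt or Sham at 20 months. Of the *sp7* values at 20 months, 16.7 and 14.8 CPM were of samples named 0pt and the lower ones of samples named Sham. The part of these words was not tested.

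Between 20 and 24 months, both of the early year, the fold changes of the 8 genes ran from -0.06 (*dlx5*) to 1.29 (*entpd5*, adjusted p = 0.316). Samples of 20 months were named 0pt or Sham and those of 24 months by an hour. None of 8 was called by edgeR or by DESeq2, 1 had an unadjusted p under 0.05, and 2.72% of 20144 genes were called by edgeR and 5.31% by DESeq2. In JpB, 4 samples of 12 months were compared with 13 of 9 to 10 months among the XMB_104 and XMB_105 fish, with year as a covariate. Samples of 1 fish label are not separate animals by their labels, and p-values of these age comparisons may be too small. None of 8 was called by either tool and none had an unadjusted p under 0.05, beside 2.7% of 20711 genes by edgeR and 9.47% by DESeq2. The smallest adjusted p was that of *alpl* (-0.39, adjusted p = 0.259). Without samples 11 and 12 edgeR again called 0 of 8, and the smallest was that of *sparc* (0.35, adjusted p = 0.0799).

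Hour of the day was read in the 16 JpA fish of 24 months, 2 at each of 8 hours. *dlx5* was at 15.5 and 32.8 CPM at 2 h, 23.2 and 28.5 CPM at 5 h, 22.9 and 34.0 CPM at 8 h and 40.4 and 51.8 CPM at 11 h. It was at 31.8 and 33.6 CPM at 14 h, 47.2 and 84.8 CPM at 17 h, 41.4 and 45.3 CPM at 20 h and 30.2 and 33.6 CPM at 23 h. The fitted 24 h curve peaked at 16.3 h with an amplitude of 0.53 log2 units, and its adjusted p was 0.078 from edgeR and 0.0165 from DESeq2. *entpd5* was highest at 14 h (9.18 and 19.6 CPM) and at 20 h (16.2 and 16.2 CPM), while both fish of 17 h lay between at 2.96 and 4.46 CPM (adjusted p = 0.135 from edgeR, 0.0346 from DESeq2). *sp7* was likewise highest at 14 h (17.7 and 21.1 CPM) and 20 h (13.5 and 20.1 CPM), with an adjusted p of 0.172. The count was 0 of 8 by edgeR and 2 by DESeq2, with 3 at an unadjusted p under 0.05, beside 2.27% of 18314 genes by edgeR and 11.2% by DESeq2.

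The 8 genes were joined in a scale index, the mean over the genes of log2 CPM after each gene was centred on its mean over the 51 skin samples. The index is a description and carries no test. It was -0.25 ± 0.43 (SD, n = 25) in JpA and 0.24 ± 0.71 (n = 26) in JpB, or 0.41 ± 0.36 (n = 24) without samples 11 and 12, and 24 of 26 JpB samples lay above the JpA median. The top 6 samples were JpB, the 4 of the late year (0.62 to 1.17) with samples 13 (0.91) and 10 (0.81). The JpB mean was 0.02 in XMB_104 (0.44 without samples 11 and 12), 0.21 in XMB_105, 0.06 in XMB_106 and 0.97 in XMB_109 fish. The JpA mean was -0.11 at 13 months, -0.50 at 20 months and -0.20 at 24 months, and these 3 groups overlapped. The lowest samples were JpB 12 (-2.06) and 11 (-1.63) and JpA 19 (-1.28), a fish of 24 months taken at 2 h.

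**Figure D3:**
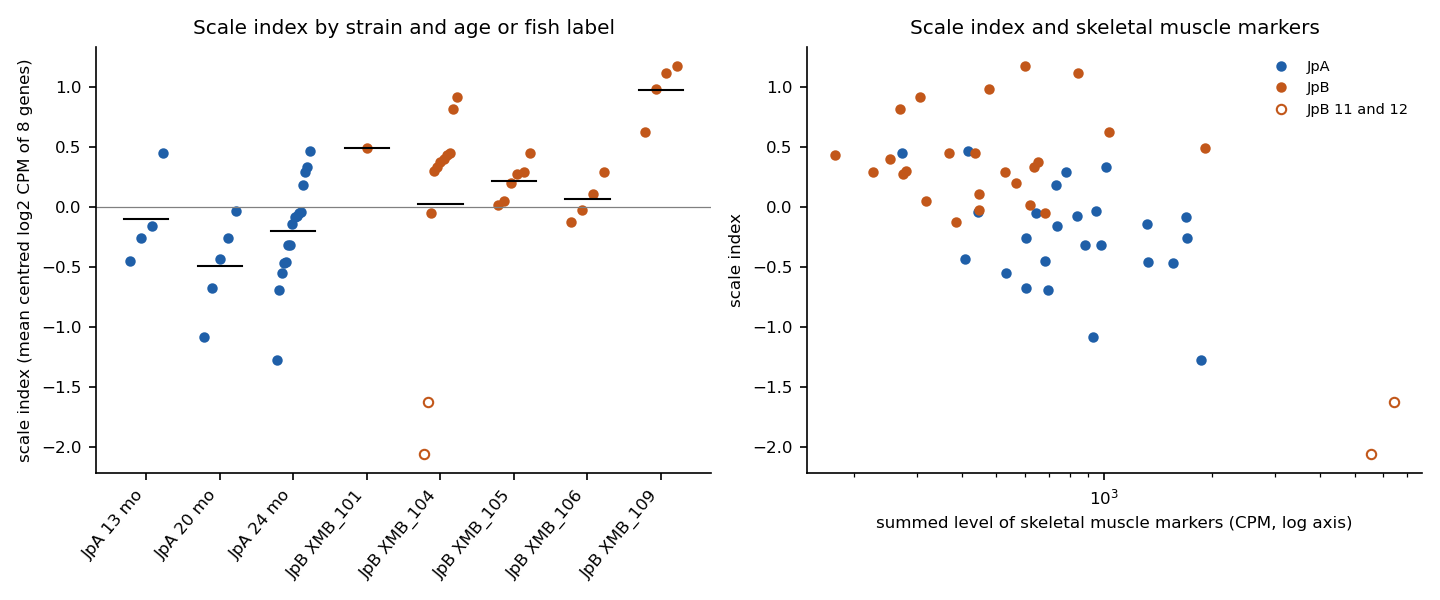
Left, scale index of each skin sample by JpA age or JpB fish label, with lines at the group means, the highest being 0.97 in JpB of the late year. Right, the index against the summed level of 5 skeletal muscle markers (CPM, log axis), where JpB samples 11 and 12 (open circles) combine the highest muscle level with the lowest index.

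The index moved with depth and with markers of other cell types, which were read from the same libraries. Over the 51 samples its Pearson r was 0.45 with log2 total counts (0.27 within JpA and 0.31 within JpB) and 0.73 with the summed level of 7 fibroblast markers (0.69 and 0.68). That sum is carried by *col1a2*, which is also a collagen of bone and scale and had r = 0.84 by itself, and with the other 6 markers r was 0.34 (0.13 within JpA and 0.38 within JpB). Of these, *dcn* had r = 0.53, *fbln1* 0.03, *pdgfra* -0.05, *pdgfrb* -0.23 and *twist1* -0.30. With skeletal muscle markers r was -0.63 (-0.38 within JpA and -0.66 within JpB, and -0.41 without samples 11 and 12). With 9 keratinocyte markers it was 0.24, but -0.13 within JpA, 0.54 within JpB and -0.02 without samples 11 and 12. With the sum of 9 genes listed for osteoclasts r was -0.54 (-0.46 within JpA, -0.66 within JpB and -0.45 without samples 11 and 12). The genes differed, with r of -0.51 for *clcn7*, -0.49 for *acp5*, -0.47 for *mmp9* and -0.27 for *ostm1*. It was -0.05 for *tnfsf11*, 0.08 for *tnfrsf11b* and 0.12 for *itgb3*. *mmp9* had the highest mean of these, 157 CPM, so the sum is no count of osteoclasts. With cartilage markers r was 0.43 (0.46 within JpA, 0.77 within JpB and 0.18 without samples 11 and 12). With melanophore markers r was 0.16 (0.10 within JpA, -0.035 within JpB and 0.49 without samples 11 and 12). With hepatocyte markers it was 0.03 (-0.27 within JpA, -0.084 within JpB and 0.28 without samples 11 and 12). That sum includes *cps1*, absent from all livers, which had r = -0.54 by itself. *col1a2* was at 3861 to 10471 CPM in the JpB samples of the late year and 646 to 876 CPM in those of the early year, and the other 6 fibroblast markers summed to 826 to 1023 CPM and 436 to 504 CPM. Melanophore markers (9 of 10 listed) summed to 97.3 to 117.5 CPM and 67.4 to 81.1 CPM in the same samples, and cartilage markers (8 of 14) to 20.2 to 29.2 CPM and 6.37 to 10.3 CPM. Hepatocyte markers were at 41.4 to 73.9 CPM in the JpB skin of the late year and 14.7 to 23.1 CPM in that of the early year, all far below the liver sums. Of these lists, 9 of 19 keratinocyte, 5 of 18 muscle, 7 of 13 fibroblast and 6 of 15 hepatocyte symbols were matched, and no matched marker was at 0 in all skin samples of a strain. The part of these cell types in the strain and year differences was not tested.

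Over the 51 skin samples 6 of the genes moved together and 2 did not, a split read from these same values. The Pearson r between *sp7*, *dlx5*, *sparc*, *postn*, *phospho1* and *entpd5*, over 15 pairs in 51 samples, ran from 0.42 to 0.90, the highest for *sp7* with *phospho1* (0.90) and *sparc* with *postn* (0.88). *alpl* had r between -0.24 and 0.19 with the other 7, and *bglap* between -0.23 and 0.30. Within JpA the 15 pairs ran from 0.03 to 0.86 and within JpB, samples 11 and 12 included, from 0.60 to 0.90. By Spearman's rho they ran from -0.08 to 0.80 within JpA and from 0.49 to 0.89 within JpB. Over all skin without samples 11 and 12 the Pearson r of the 15 pairs ran from 0.32 to 0.90. The split was not clean within JpA, where *alpl* had r of -0.58 to 0.33 and *bglap* of -0.15 to 0.35 with the other 7. Against the mean of the other 7 genes, r was 0.89 for *sparc*, 0.80 for *postn*, 0.79 for *phospho1*, 0.73 for *sp7*, 0.67 for *dlx5*, 0.57 for *entpd5*, 0.11 for *bglap* and -0.08 for *alpl*.

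**Figure D4:**
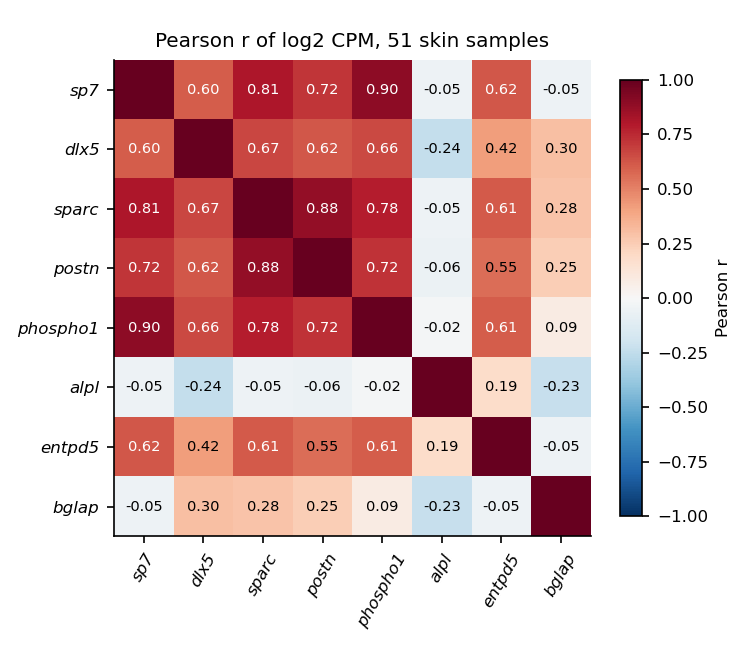
Pearson r of log2 CPM between the 8 genes over 51 skin samples. The 6 genes *sp7*, *dlx5*, *sparc*, *postn*, *phospho1* and *entpd5* have r of 0.42 to 0.90 with each other, and *alpl* and *bglap* have r of -0.24 to 0.30 with all others.

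The genes with a symbol whose skin pattern was most like the index, by Pearson r over 51 samples among 17343 genes with a mean of at least 1 CPM, were *ogn* (0.90), *igsf8* (0.88), *gpm6a* (0.88), *mmp2* (0.87), *serpinf1* (0.86), *fam198a* (0.86), *panx3* (0.86), *enpp2* (0.86), *ecm2* (0.85) and *mamdc2* (0.85). The median r of all these genes was -0.01, and 90% of them lay between -0.53 and 0.54. *ogn* encodes osteoglycin, a small leucine-rich proteoglycan of bone and connective tissue, *mmp2* a gelatinase, *serpinf1* pigment epithelium-derived factor and *panx3* a channel protein of osteoblasts and chondrocytes. Of the 10, 5 were also among the top 10 by Spearman's rho, 2 within JpA alone (*ogn* and *igsf8*), 7 within JpB alone and 6 without samples 11 and 12.

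Wider lists of bone genes were read beside the 8, in the strain comparison over all skin samples. Of 12 measured genes of matrix and mineralization, 8 were higher in JpB and 0 lower, with a median fold change of 0.43. They included *aspn* (1.12, standard error 0.19, adjusted p = 2.62e-05), *panx3* (1.00, adjusted p = 0.000875), *smpd3*, a sphingomyelinase needed for bone mineral (1.65, adjusted p = 0.00117), and the gap junction gene *gja1* (0.51, adjusted p = 0.0138). Among the 8, *tnn* (adjusted p = 0.0476) and *dcn* (adjusted p = 0.0496) lay near the limit. Of 5 collagen genes of bone and scale, 4 were higher, *col1a1* (2.20, adjusted p = 5.68e-05) and *col1a2* (1.90, adjusted p = 0.000125) of type I collagen, *col24a1* (0.82) and *col12a1* (0.59). Their summed level was 402, 1313 and 6975 CPM in JpA and 206, 4702 and 25623 CPM in JpB.

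Of 20 genes of collagen folding and crosslinking, 5 were higher and 0 lower, led by *loxl2* (0.63), *creb3l1*, a transcription factor of collagen secretion in osteoblasts (0.80), *p4ha2* (0.45) and *tmem38b* (0.32). Their median fold change was 0.11. Of 15 regulators of bone and scale, 2 were higher, *smad9* (0.66, adjusted p = 9.10e-05) and *bmp2* (0.51, adjusted p = 0.00707), and *twist1* was lower (-0.57, adjusted p = 0.000897). Of 13 genes of scale placode signals, *gli1* (0.37) and *bmpr1b* (0.36) were higher. Of 8 osteoclast genes tested, 0 were higher and 2 were lower, *acp5*, the tartrate-resistant acid phosphatase (-0.79, adjusted p = 0.00264), and *ocstamp* (-1.28, adjusted p = 0.00198), whose mean level in skin was under 1 CPM. All of these counts stand beside 13.2% of genes called higher and 12.3% called lower, and within the early year edgeR called none of the genes of these 6 lists, the smallest adjusted p being 0.0802 (*sec24d*, -1.12). The lists held 29 (matrix), 10 (collagen), 27 (folding), 24 (regulators), 17 (placode) and 16 (osteoclast) symbols, and the others were not analysed here. Over the 51 samples the scale index had r = 0.83 with the summed level of the collagen list, 0.70 with matrix and 0.61 with folding. It had r = 0.40 with the regulators (0.28 within JpA and 0.48 within JpB) and 0.38 with the placode list (0.18 and 0.49).

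Among lists of other cell types, in the comparison over all skin samples and beside the same 13.2% and 12.3%, 0 of 5 muscle genes were called by edgeR (adjusted p of 0.531 or more). Of 8 keratinocyte genes tested, *anxa1* was higher (0.63), and *ppl* (-0.52) and *grhl3* (-0.63) were lower. Of 7 fibroblast genes, 2 were higher, *col1a2* and *dcn* (0.26), and 2 were lower, *tcf21* (-1.51) and *twist1*. *col1a2*, *dcn* and *twist1* are also on the bone lists above, so these lists are not independent. Of 4 cartilage genes tested, 2 were higher and 2 lower, and of 9 melanophore genes, 4 were higher and 1 was lower. Of 6 hepatocyte genes, 3 were higher, *apob* (0.95), *fgb* (2.32) and *fgg* (1.97).

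Liver served as a tissue without scales. *sp7*, *dlx5*, *sparc*, *postn* and *entpd5* were far lower there in both strains, whereas *phospho1* and *alpl*, of which alkaline phosphatase is also an enzyme of liver, were higher in liver than in skin. In JpA fish of 20 months, *dlx5* was at 0.173, 0.112, 0.081 and 0 CPM in liver, 5 counts in all, and at 22.0 to 46.8 CPM in skin (log2 fold change of liver over skin -8.59, standard error 0.52, adjusted p = 5.39e-07). *sp7* had 2 counts in the 4 livers, both in liver 1, and was 308-fold higher in skin than in the pooled livers, with a 95% exact Poisson interval of 85.1 to 2539 that covers counting error in liver only. *entpd5* had 0 counts in all 4 livers and was at least 45.2-fold higher in skin, against a floor of 3 counts over the 4 livers. *sparc* was at 6.49, 17.2, 1.30 and 3.97 CPM in liver and 272 to 381 CPM in skin (-5.33, adjusted p = 7.76e-05), and *postn* at 1.38, 0.614, 0.243 and 1.82 CPM and 245 to 499 CPM (-8.59, adjusted p = 1.34e-06). None of these liver and skin groups overlapped.

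The phosphatases went the other way. *phospho1* was at 102, 12.2, 119 and 143 CPM in the livers of 20 months and at 4.58 to 19.9 CPM in skin (2.86, standard error 0.63, adjusted p = 0.00291). Liver 2, at 12.2 CPM, lay within the skin range. *alpl* was at 48.9, 129, 46.4 and 51.7 CPM in liver and 11.0 to 35.6 CPM in skin (1.77, standard error 0.44, adjusted p = 0.00562), liver 2 being the highest. *bglap* had 10 counts in the 4 livers and its fold change of -1.57 was not called (adjusted p = 0.121), but with all 6 livers and 25 skin samples it was called (-3.18, adjusted p = 0.00225). In JpA 5 of 8 genes were called lower in liver and 2 higher, beside 31.1% and 24.9% of 19393 genes, and the count of 7 did not change when any 1 sample was left out.

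**Figure D5:**
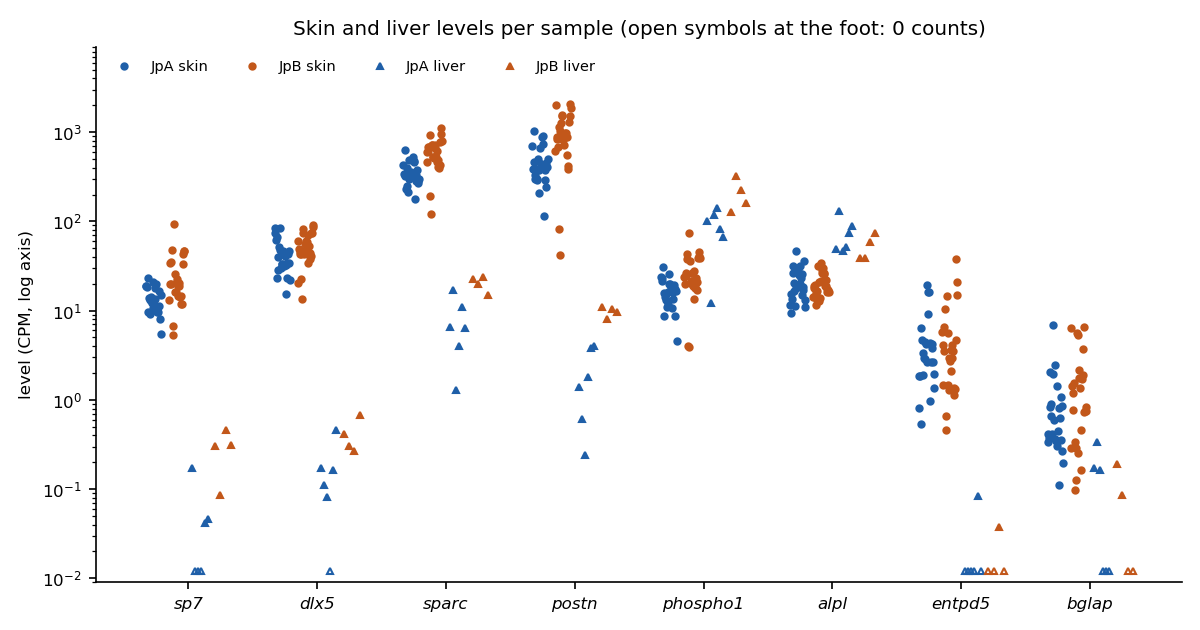
Level of each gene (CPM, log axis) in every skin (circles) and liver (triangles) sample of JpA (blue) and JpB (orange), with open symbols at the foot for 0 counts. *phospho1* and *alpl* are the 2 genes with liver levels above most skin samples.

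In JpB of the late year the pattern was the same for every gene called in JpA. *sp7* was at 0.302, 0.0867, 0.455 and 0.313 CPM in liver (29 counts) and 33.2 to 46.8 CPM in skin (-7.18, standard error 0.27, adjusted p = 1.10e-09). *dlx5* (-7.64), *postn* (-7.45), *sparc* (-5.51) and *bglap* (-3.42, adjusted p = 0.000439, with 7 counts in the 4 livers) were lower in liver as well. *entpd5* had 1 count in the 4 livers, a skin level 1924-fold higher (interval 345 to 75998, from the liver count only). *phospho1* was at 128, 326, 227 and 161 CPM in liver and 38.5 to 45.1 CPM in skin (2.36, standard error 0.26, adjusted p = 8.14e-06), and *alpl* at 38.5, 38.7, 58.7 and 73.9 CPM in liver and 16.0 to 17.3 CPM in skin (1.64, adjusted p = 1.67e-05). The count was 6 of 8 lower and 2 higher, beside 47% and 36.5% of 20645 genes.

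Between the livers of the strains, 4 of the 8 genes passed the filter on low counts, *sparc*, *postn*, *phospho1* and *alpl*. *postn* was at 1.38, 0.614, 0.243, 1.82, 3.86 and 4.04 CPM in JpA, that is 0.243, 1.60 and 4.04 CPM as lowest, median and highest, and at 10.9, 8.15, 10.4 and 9.53 CPM in JpB. The groups did not overlap, and the log2 fold change was 2.17 (standard error 0.56, adjusted p = 0.0392). The 2 JpA livers whose titles name JpB, of 13 months, were at 3.86 and 4.04 CPM, and without them the fold change was 3.10 (adjusted p = 0.0154). These 2 are the only JpA livers of the late year, to which all JpB livers belong. Their mean was 3.95 CPM, against 1.02 CPM in the 4 JpA livers of 20 months, of the early year. Strain, year and age therefore cannot be told apart in the fit without them. *sparc* (1.26, adjusted p = 0.12), *phospho1* (1.14, adjusted p = 0.149) and *alpl* (-0.61, adjusted p = 0.218) were not called. The count was 1 of 4 higher and 0 lower, beside 3.94% and 4.91% of 16818 genes, and leaving out 1 liver at a time gave 0 to 2 calls, with 0 without any 1 of the 4 JpB livers or without JpA liver 1 or 4. An interaction of tissue and strain over all samples, added after the liver values were seen, called 0 of the 8 genes by edgeR (0 at an unadjusted p under 0.05), beside 19.8% of 21792 genes. The strain effect of *postn* in liver was thus not shown to differ from that in skin (difference 1.17, standard error 0.62, adjusted p = 0.178).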

How the data were processed

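RNA-seq of skin and liver of male JpA and JpB fish was deposited by the authors as raw counts per gene. Per the study's methods, mRNA libraries were sequenced as paired ends, reads were aligned with TopHat2 and counted with featureCounts. The 8 genes and the other lists were chosen with earlier results of these data known. Total counts were 26843901 to 98104664 per library. The 51 skin samples carry 46 fish labels, and p-values measure the spread between these samples, some of which may share a fish.

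Same-label libraries were summed where their chi-square, divided by its degrees of freedom, was under 3. Counts were filtered with edgeR's filterByExpr (minimum count 10), TMM scaled and fitted with edgeR 4.0.16 (limma 3.58.1, R 4.3.3), JpA as control. DESeq2 1.42.0 was an alternative, with upper quartile scaling, no filter, left-out samples, ages and years, and a replicate block. CPM came from TMM library sizes, and log2 CPM for the index and correlations used a prior count of 2. Named genes were the 8 genes, the called genes of each list, and the 10 genes most like the index. The steps were tested on simulated data. Coordinates are whole gene spans, introns included, from the RefSeq annotation of X_maculatus-5.0-male. Promoter and protein sequences and transcript lengths were not used here. Intervals and floors (3 counts over a group) cover counting error only.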

Additional observations from a re-analysis of the deposited data

Results flagged for a closer look

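In 71 combinations of 1 gene and 1 group of 4 to 10 samples, the highest and lowest sample were compared with the group's range. Some groups share samples, and where all other livers held 0 counts any count stands out by construction. No rate by chance is therefore given. In 9 combinations a sample lay far from the others. In skin these were JpA sample 4 among the fish of 13 months, for *sp7* (23.2 CPM) and *bglap* (0.840 CPM), JpB sample 26 among those of the early year for *entpd5* (3.55 CPM), and JpB sample 32 among those of the late year for *bglap* (0.836 CPM). In liver they were JpA liver 1 for *sp7* (0.173 CPM), both among all JpA livers and among those of 20 months, JpA liver 5 (0.0829 CPM) and JpB liver 3 (0.0379 CPM) for *entpd5*, and JpA liver 2 for *alpl* (129 CPM among livers of 20 months). The liver values of *sp7* and *entpd5* rest on 1 or 2 counts each.

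The strain effect of *entpd5* in skin differed between the label years, by 4.35 log2 units (the late year minus the early year, interaction term in edgeR, adjusted p = 0.0466). All 4 JpB samples of the late year lay above the JpA median of that year, and 1 of 4 JpB samples of the early year did.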

How the results depend on the processing

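The calls over all skin samples changed with some choices of ages and years and not with others. Leaving out 1 JpB label year at a time, or the JpA fish of 20 months, kept 4 of the 8 genes called, beside 3977 to 5216 genes in all. Leaving out those of 13 months gave 5, beside 5649 genes in all, and those of 24 months are 16 of the 25 JpA samples. With label year as a covariate, 2 of the 8 genes and 2570 genes in all were called (4 and 5093 otherwise), and without the JpA fish of 24 months 1 and 2251. With a replicate block, on sample numbers that do not mark shared animals, 2 of the 8 (*sp7* 0.64, *sparc* 0.65) and 3357 genes were called. In that pairing check 0 of 18 shared numbers correlated best with their own number (median r 0.054), and no block could be fitted in the late year. In liver the replicate block called 0 of the 8 and 87 genes, against 1 and 1488. For liver against skin, a block on the 5 fish labels with both tissues called 7 of 8 genes and 12156 genes in all. Without the block these samples gave 8 and 12664, so *bglap* was lost (adjusted p = 0.0546). Without JpB samples 11 and 12, label year called 7 of 8 genes and 8759 genes in all (2 and 6036 with them). In the same setting 12 against 9 to 10 months called 1849 genes (559 with them).

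DESeq2 called 4660 genes in the late year (2666 by edgeR), 2013 in the early year (785), 823 between 13 and 20 months (58), 1065 between 20 and 24 months (548), 1959 between 12 and 9 to 10 months (559), 2043 by hour (416) and 3195 between livers (1488), with 1 of the 8 genes between 13 and 20 months and 2 by hour. Leaving out 1 sample gave 1 to 6 of the 8 genes and 851 to 3531 genes in the late year, 0 to 2 and 238 to 2129 between livers, and 172 to 474 genes in the early year (JpB samples only). It gave 5 to 68 genes between 13 and 20 months, 228 to 444 between 20 and 24 months (those of 20 months only), 5 to 297 between 12 and 9 to 10 months (those of 12 months only), 189 to 1732 by hour and 3941 to 5564 by label year (XMB_106 and XMB_109 samples only).

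Directions turned only for values that were not called. In the strain comparison *alpl* was at 0.078 with the year covariate, 0.026 without XMB_104 fish and 0.22 without JpA of 24 months, *dlx5* at -0.012 without JpA of 24 months, and *entpd5* at -0.28 with the replicate block and -0.39 without XMB_109 fish. With 1 of these samples left out, *sp7* in the early year ranged from -0.0051 to 0.092. From 13 to 20 months *entpd5* ranged from -0.43 to 0.77 (0.045 without JpA sample 24) and *bglap* from -0.23 to 0.58 (-0.025 without JpA sample 24). From 20 to 24 months *postn* ranged from -0.024 to 0.20, *dlx5* from -0.20 to 0.023 and *phospho1* from -0.0085 to 0.37, and *dlx5* at 12 months from -0.12 to 0.0048. Causes were not tested. Low counts limit *bglap* in skin and in liver, and *sp7*, *entpd5* and *dlx5* in liver. They also limit the list genes *ocstamp*, *tcf21* and *col9a3*, whose mean level in skin was under 1 CPM. The all-liver fit, the interactions, XMB_109 against XMB_106 skin, the fit on 24 JpB samples and the fits without JpA livers 5 and 6 were chosen after seeing the data.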

Other observations

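JpA fish of 20 months with the labels x and z each gave a skin library named 0pt and one named Sham. *sp7* was at 16.7 CPM (0pt) and 8.01 CPM (Sham) under label x and at 14.8 and 5.44 CPM under label z, and *phospho1* at 17.3 and 8.82 CPM under label x and 16.5 and 4.58 CPM under label z. *bglap* and *dlx5* were also lower in Sham under both labels and *alpl* was higher under both, while *sparc*, *postn* and *entpd5* were lower in Sham under label x and higher under label z. In the late year *sp7* was at 33.2 and 43.6 CPM (0 min) and 46.7 and 46.8 CPM (sham) in JpB, and at 18.8 and 18.8 CPM (0 min) and 18.6 and 23.2 CPM (sham) in JpA. With 2 labels this was not tested.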
